A study of Mus musculus with 20 samples.

Results

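The mitochondrial respiratory chain and ATP synthase are built from subunits of 2 genomes, and the 106 genes described here are those of the deposited count table that encode them. They were taken by name, from the 49315 gene identifiers of the table: protein-coding genes of mouse build GRCm38 whose symbol starts with Nduf, Uqcr, Atp5, Cox4 to Cox8 or mt-, and Sdha, Sdhb, Sdhc and Sdhd. No measured value entered that choice. Of the 106 genes, 93 are nuclear and 13 are encoded by mitochondrial DNA (the mt- genes). The filter on low counts left 90 of the 93 nuclear genes and all 13 mt- genes among the 28082 genes tested. Cox7b2, Cox8b and Cox8c did not pass it.

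RNA was sequenced from CD4+CD25- T effector cells sorted from mouse spleen, with a stated purity over 99%. The control genotype (CTL) is Fl-Pcbp2, which carries the floxed Pcbp2 gene without Cre, and the mutant genotype (CKO) is Fl-Pcbp2/CD4cre, in which Cre under the Cd4 promoter removes Pcbp2 in developing T cells, so that CD8 cells and regulatory T cells lose it as well. Pcbp2 is an RNA-binding protein of the poly(C)-binding family. Cells were frozen without stimulation (0 h; 6 CTL and 6 CKO libraries) or after 6 h of culture with CD3/CD28 activator beads (5 CTL and 3 CKO libraries). The animals were littermates, and the labels give neither their age nor which animal gave which library, so p-values measure the spread between these libraries. A number in each title, such as 4.24, names a library within its group.

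Electrons from NADH enter the chain at complex I and those from succinate at complex II. They pass through coenzyme Q to complex III, then through cytochrome c to complex IV, which reduces oxygen. Complexes I, III and IV pump protons across the inner membrane, and complex V (ATP synthase) makes ATP from their return. The mt- genes encode core subunits of complexes I, III, IV and V, and complex II is entirely nuclear. Naive T cells rest mainly on oxidative phosphorylation, and activated T cells add aerobic glycolysis while their mitochondria grow.

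Pcbp2, measured over the whole gene, stood at 261 to 396 CPM (a gene's counts relative to library size, scaled by TMM factors) in the 6 CTL libraries at 0 h and at 13.1 to 22.1 CPM in the 6 CKO libraries. At 6 h it stood at 262 to 348 CPM in CTL and 7.27 to 11.3 CPM in CKO. Total counts were 26427467 in CTL 6 h library 4.24 and 62402807 to 85608113 in the other 19 libraries. The same library had 4.22% of its counts in genes with a mean under 1 CPM, against 0.169% to 0.751% in the other 19. Results that rest on it are given with and without it. Every CKO library at 0 h is labelled male, while each of the other groups holds libraries labelled male and female. Yet CKO 0 h libraries 4.24 and 5.6 carry 1130 and 1317 CPM of Xist, a transcript of the inactive X chromosome in females. Library 5.6 of CKO is labelled male at 0 h and female at 6 h. The 6 CD4 T cell markers (Cd3e, Cd3d, Cd3g, Cd4, Trac and Lck) were present in every group at a mean of at least 1 CPM. They summed to 3560 to 4713 CPM in CTL at 0 h and to 1644 to 2171 CPM in CTL at 6 h. The 6 B cell markers also moved with time: all 6 had a mean of at least 1 CPM in every group, and their sum was 672 to 1166 CPM in CTL at 0 h against 123 to 156 CPM at 6 h, and 663 to 1386 CPM against 171 to 356 CPM in CKO. The 7 myeloid markers summed to 25.7 to 120 CPM in CTL at 0 h and to 2.38 to 14.0 CPM at 6 h. The 4 dendritic markers summed to 20.1 to 151 CPM in CTL at 0 h and to 4.96 to 28.9 CPM at 6 h. In CKO their sum was 39.7 to 193 CPM against 8.18 to 20.3 CPM. Of them, Xcr1 went the other way, with means of 0.781 and 2.17 CPM in CTL. The B cell, myeloid and dendritic sums move with every comparison of 6 h with 0 h below, and their part in it was not tested. In bulk RNA, fewer cells of a type and less RNA per cell cannot be told apart.

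The 13 mt- genes split into 2 ranges of counts. mt-Co1, mt-Cytb, mt-Nd5, mt-Nd1, mt-Nd2, mt-Nd4 and mt-Nd6 ranged from 216 to 14247 CPM over all libraries. mt-Nd3, mt-Co3, mt-Atp6, mt-Co2, mt-Nd4l and mt-Atp8 ranged from 0.0589 to 6.62 CPM. Of these 6, 5 have a nuclear pseudogene on chromosome 1 that repeats nearly the whole gene: 97.6% to 99.9% of their 100-base windows occur without mismatch in another annotated transcript. mt-Co2 matches Gm28661 over 681 bases, mt-Atp6 matches Gm10925 over 678 and mt-Co3 matches Gm28437 over 783, each with 0 mismatches. mt-Nd4l matches Gm10222 over 294 bases with 0 mismatches, and mt-Nd3 matches Gm28438 over 345 bases with 1 mismatch. The sixth gene, mt-Atp8, shares no window with another annotated transcript, is 204 bases long and overlaps mt-Atp6 on the same strand. Only annotated transcripts were compared, so a nuclear copy without annotation would not have been found. The copies were counted at low levels too, but not always near those of the mt- gene. In CTL at 0 h, Gm28661 stood at 0.721 to 1.55 CPM and mt-Co2 at 0.484 to 0.854 CPM. Gm10925 (0.792 to 1.84 CPM) overlapped with mt-Atp6 (0.439 to 1.30 CPM), and Gm28437 (0.439 to 1.02 CPM) with mt-Co3 (0.810 to 1.61 CPM). Gm28438 (0.074 to 0.248 CPM) lay below mt-Nd3 (1.61 to 5.70 CPM). Gm10222 (0.059 to 0.209 CPM) lay below mt-Nd4l (0.347 to 0.867 CPM). A read that fits both places equally cannot be assigned by its sequence. The sources used here do not give how such reads were counted, and the values of these 6 genes are uncertain. Of the 7 higher genes, mt-Nd4 shares 60.8% of its windows with Gm28439, mt-Co1 30.8% with Gm29216 and mt-Nd2 3.19% with Gm13339. The part of shared sequence in the split was not tested. mt-Cytb, mt-Nd1, mt-Nd5 and mt-Nd6 share no window, though mt-Nd6 lies opposite mt-Nd5 and whether counting used the strand is not stated in those sources.

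The stretches below show how near these copies are, in GRCm38 coordinates and from the GENCODE M21 transcripts, with the bases that differ in capitals. The first pair is from mt-Co1, in the higher range, and runs over chrM:6390-6489 on the plus strand and chr1:24616089-24616188 on the minus strand. The second pair is from mt-Nd3, in the lower range, and runs over chrM:9459-9558 on the plus strand and chr1:24613020-24613119 on the minus strand.
mt-Co1: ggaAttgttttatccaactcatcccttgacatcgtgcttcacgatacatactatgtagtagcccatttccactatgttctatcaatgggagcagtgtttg
Gm29216: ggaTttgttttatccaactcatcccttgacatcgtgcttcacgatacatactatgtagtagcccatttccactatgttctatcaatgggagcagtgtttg
mt-Nd3: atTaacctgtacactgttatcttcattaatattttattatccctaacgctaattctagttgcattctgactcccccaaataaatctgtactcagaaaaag
Gm28438: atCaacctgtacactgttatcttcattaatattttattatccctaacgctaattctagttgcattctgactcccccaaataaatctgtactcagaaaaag
Over 100 bases each pair differed at 1 base. The similar stretch covers 483 of the 1545 bases of mt-Co1, and 345 of the 348 bases of mt-Nd3.

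**Figure D1:**
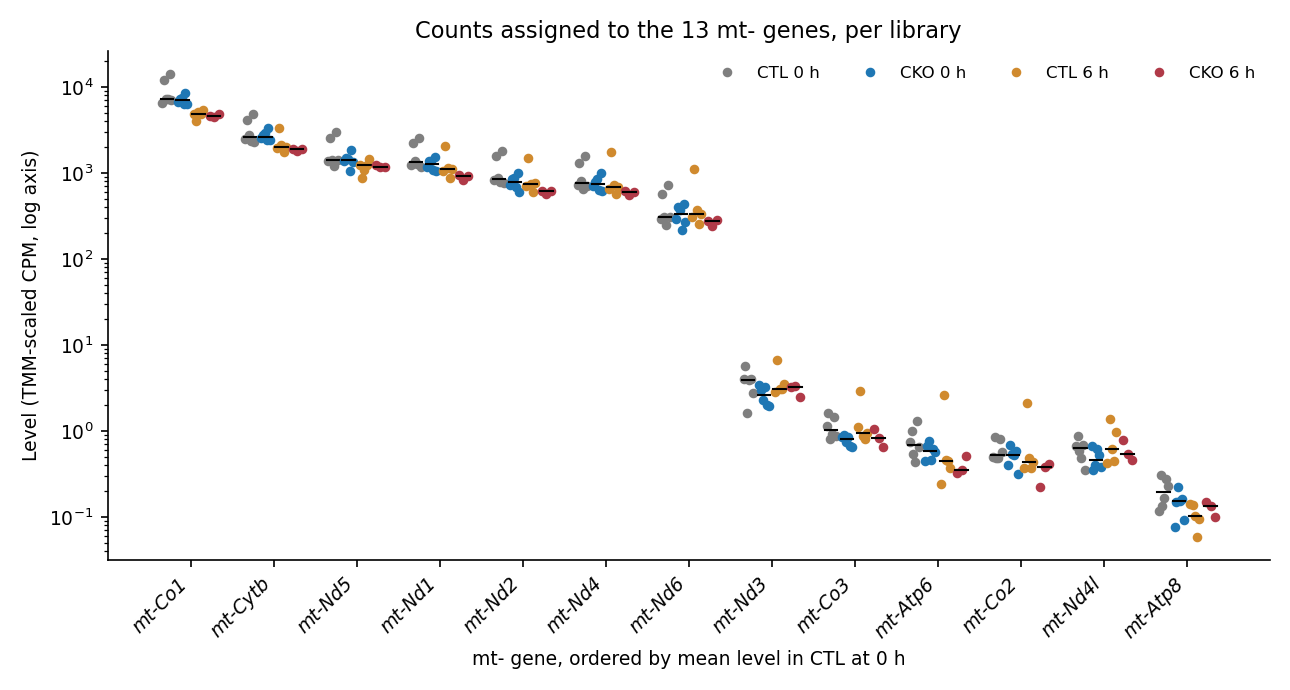
Level of each mt- gene in each of the 20 libraries (TMM-scaled CPM, log axis), coloured by genotype and time; black bars are group medians. The 7 genes on the left sit above 216 CPM in every library and the 6 on the right below 6.62 CPM.

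Per length, mt- genes of the higher range were the most abundant members. In CTL at 0 h, mt-Co1, the catalytic subunit of complex IV, reached 5879 ± 2113 CPM per kilobase of transcript (SD, n = 6). mt-Cytb, the cytochrome b of complex III, followed at 2762 ± 949 CPM per kilobase, and mt-Nd1, mt-Nd2 and mt-Nd5 of complex I at 1719 ± 619, 1066 ± 440 and 1006 ± 417. The ranges of neighbours in that order overlapped between libraries, and libraries 4.24 and 5.6 were high for each. The highest nuclear members were Cox4i1 of complex IV at 259 ± 38.6 CPM per kilobase and Atp5b, the catalytic beta subunit of ATP synthase, at 259 ± 38.0. The order is a description on annotated transcript lengths, and libraries selected for poly(A) need not capture mitochondrial and nuclear transcripts alike.

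Most isoforms known from muscle, lung or testis were near 0 in these T cells, beside common partners at high levels. Cox6a1 stood at 161 ± 24.8 CPM per kilobase in CTL at 0 h (SD, n = 6) and its heart and muscle isoform Cox6a2 at 1.96 ± 2.10. Cox7a2 stood at 52.1 ± 6.80 and its muscle isoform Cox7a1 at 3.70 ± 0.391, and Cox6b1 stood at 97.9 ± 14.8 and its testis isoform Cox6b2 at 1.99 ± 0.474. Ndufa4, a subunit of complex IV, stood at 124 ± 15.7 and its relative Ndufa4l2 at 0.030 ± 0.025. Among the genes of the membrane ring of ATP synthase, which encode the same mature protein, Atp5g2 (159 ± 21.1) and Atp5g3 (155 ± 17.0) were close and Atp5g1 was lower (62.2 ± 7.6). All windows of the Atp5g2 transcript and 57.3% of those of Atp5g1 also occur in other transcripts, processed pseudogenes among them, so their split is uncertain.

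Together the nuclear members took 0.497% to 0.601% of all counts in CTL and 0.535% to 0.631% in CKO at 0 h, and 0.512% to 0.565% in the stimulated CKO libraries. In stimulated CTL cells they took 0.514% to 0.598% in 4 libraries and 0.863% in library 4.24. The mt- genes took 1.23% to 1.40% in 4 of the 6 CTL libraries at 0 h, and 2.43% and 2.91% in libraries 4.24 and 5.6. In CKO they took 1.08% to 1.72% at 0 h and 0.982% to 1.08% at 6 h. Stimulated CTL libraries had 1.05% to 1.26%, apart from library 4.24 with 2.00%. The ratio of mt- to nuclear counts does not depend on how libraries are scaled. It was 2.04 to 5.86 in CTL (median 2.60) and 1.71 to 3.17 in CKO (median 2.49) at 0 h, and 2.02 to 2.32 in CTL (median 2.07) and 1.87 to 2.08 in CKO (median 1.92) at 6 h. The groups overlapped in each comparison of time and of genotype, and the wide end of CTL at 0 h is libraries 4.24 and 5.6.

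**Figure D2:**
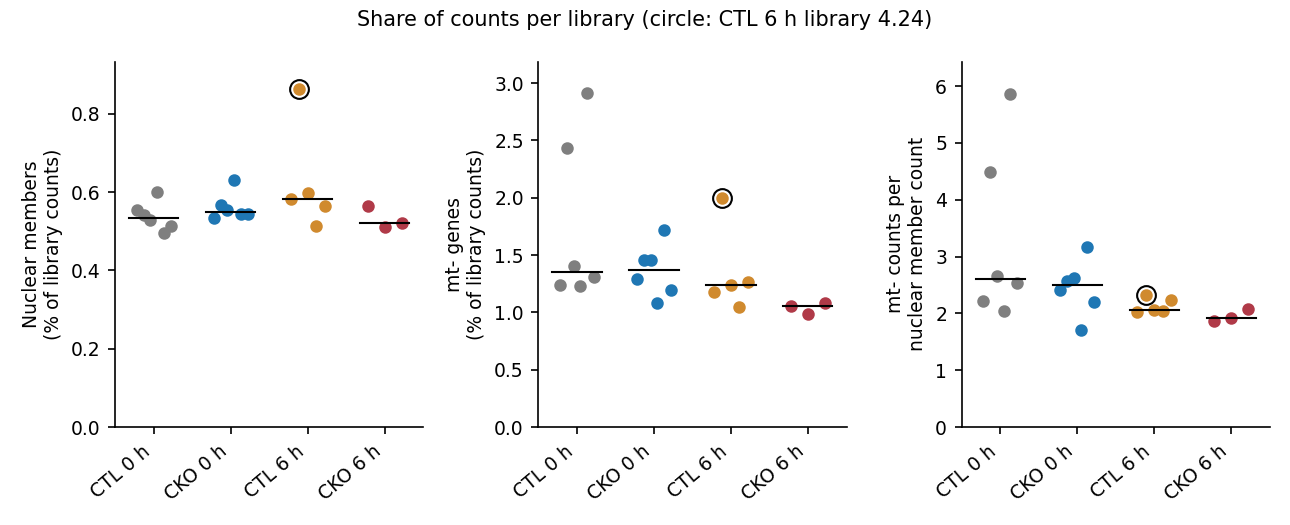
Share of each library's counts from the nuclear members (left) and the mt- genes (middle), in percent, and the ratio of the latter to the former (right); bars are group medians and the circle is CTL 6 h library 4.24. That library is the highest of its group in all 3 panels, and the 2 CTL 0 h libraries above 2% in the middle panel are 4.24 and 5.6.

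After 6 h of stimulation in CTL, few nuclear members changed, and in both directions. Of 90 tested, 10 rose and 15 fell at an adjusted p under 0.05, or 11.1% and 16.7%. Of all 28082 genes tested, 41.6% were called higher and 21.7% lower, and of the 14446 genes averaging 1 CPM or more, 18.2% and 38.2%. The median log2 fold change was 0.0052 for the nuclear members, -0.19 for the genes at or above 1 CPM and 0.31 for all genes. Without library 4.24 of CTL at 6 h, 7 rose and 26 fell, with a median of -0.11, beside 35.6% higher and 22.6% lower of all genes, and 19.1% and 37.2% of those averaging 1 CPM or more. All 15 that fell with all libraries fell again, and 6 of the 10 that rose rose again (Atp5g1, Cox4i2, Cox6b2, Ndufaf2, Ndufb6 and Uqcrfs1).

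The counts of calls depended on how libraries were scaled. With library totals in place of TMM factors, 41 nuclear members were called higher and 4 lower, a split of 45.6% and 4.44%, and the median of all genes moved from 0.31 to 0.57. When only genes averaging 1 CPM or more were kept, 24 were called higher and 4 lower. With that filter and without library 4.24, both chosen after the data were seen, 16 were called higher and 9 lower. Relative to the genes at or above 1 CPM in the same fit, the median of the nuclear members was higher under all 36 settings tried, by 0.03 to 0.27 on the log2 scale and by 0.19 with the settings used for the values below. For the nuclear members called in CTL that the naming rule selects, the direction was the same under each alternative setting tried. Apart from fits that left out 1 library, a call held under all settings, or all but 1, for 5 of the 10 named that rose (Atp5g1, Cox4i2, Cox6b2, Ndufaf2 and Ndufb6) and, among those that fell, for Cox6a2 and Ndufb10.

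**Figure D3:**
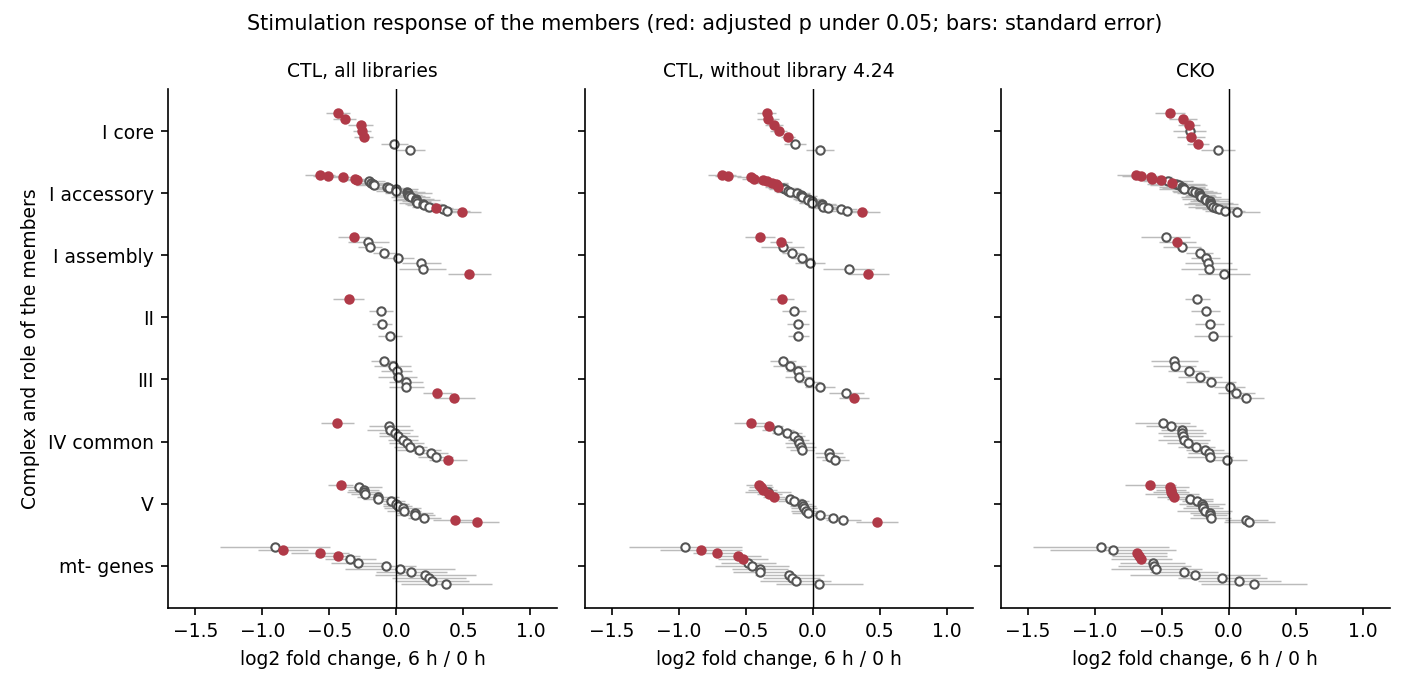
log2 fold change of 6 h over 0 h with its standard error for each tested member, by complex and role, in CTL with all libraries (left), CTL without library 4.24 (middle) and CKO (right); red marks an adjusted p under 0.05, and the 5 tested tissue isoforms of complex IV are left out. No core subunit of complex I is red to the right of 0 in any panel, and 5 of 7 are red to the left in each of the left and middle panels.

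Complex I held most of the members that fell, where 38.2% of genes averaging 1 CPM or more were called lower in CTL. It also has the most members, with 7 core subunits, 29 accessory subunits and 8 assembly factors of the 90 tested. Its 7 nuclear core subunits carry the flavin and the iron-sulfur clusters that pass electrons to coenzyme Q, and 5 of the 7 fell, Ndufs1 and Ndufv1 among them, while 0 rose, with and without library 4.24. Ndufv1, which binds NADH, ranged from 59.8 to 72.2 CPM in CTL at 0 h (median 66.2, n = 6) and stood at 53.2, 38.5, 54.3, 56.8 and 52.1 CPM in the 5 CTL libraries at 6 h. The groups did not overlap, and the lowest value is library 4.24. The log2 fold change was -0.39 ± 0.087 (SE; adjusted p = 0.00078), and -0.29 ± 0.067 without that library. Ndufv1 is one of 8 nuclear members whose CTL levels at 6 h were all below those at 0 h, where 12.6% of all genes were. Ndufs1, which carries iron-sulfur clusters, changed by -0.25 ± 0.068 (adjusted p = 0.0030).

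Of the 29 accessory subunits of complex I, which surround the core and hold it together, 2 rose and 5 fell, or 1 and 10 without library 4.24. Ndufb10, a subunit of the membrane arm, ranged from 50.8 to 69.5 CPM in CTL at 0 h (median 52.5) and stood at 34.0, 47.3, 37.7, 38.0 and 29.7 CPM at 6 h. The groups did not overlap even with library 4.24, the highest at 6 h, and the log2 fold change was -0.57 ± 0.11 (SE; adjusted p = 0.00030). Ndufv3, which sits beside Ndufv1 and Ndufv2 at the tip of the matrix arm, ranged from 48.1 to 59.0 CPM at 0 h and from 26.4 to 49.6 CPM at 6 h. Its change was -0.51 ± 0.12 (adjusted p = 0.00091), and only library 4.24 reached into the range of 0 h. Ndufb6, in the same membrane arm as Ndufb10, went the other way: 14.8 to 21.1 CPM at 0 h (median 16.1), and 23.0, 31.5, 20.4, 18.9 and 24.7 CPM at 6 h. The ranges overlapped, and its change was 0.49 ± 0.14 (adjusted p = 0.0046), or 0.37 ± 0.13 without library 4.24. Within each library, the counts of Ndufb6 per count of Ndufb10 were 0.272 to 0.332 in CTL at 0 h and 0.497 to 0.829 at 6 h, and 0.288 to 0.341 and 0.458 to 0.657 in CKO. That pair was chosen after the values were seen, and its ratio is free of library scaling.

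The 8 Ndufaf assembly factors of complex I act during its construction and are absent from the finished enzyme. Among them 1 rose and 1 fell, or 1 and 2 without library 4.24. Ndufaf2 changed by 0.55 ± 0.16 (SE; adjusted p = 0.0059), from 4.08 ± 0.512 CPM (SD, n = 6) to 5.94 ± 1.57 (SD, n = 5). Ndufaf3 changed by -0.32 ± 0.12 (adjusted p = 0.022). Ndufa5, an accessory subunit of the matrix arm, changed by 0.30 ± 0.12 (adjusted p = 0.042), a call that held in 7 of 20 fits that left out 1 library and not with the library number as a block (adjusted p = 0.079). Ndufa10 (-0.40 ± 0.090, adjusted p = 0.00088) and Ndufa13 (-0.31 ± 0.12, adjusted p = 0.038) fell. Ndufa10 kept its call without any 1 library, and Ndufa13 kept it in 13 of 20 such fits.

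Complex II, succinate dehydrogenase, also belongs to the citric acid cycle. Its flavoprotein Sdha ranged from 211 to 318 CPM in CTL at 0 h (median 272) and from 141 to 252 CPM at 6 h (median 230), and fell by 0.36 on the log2 scale (SE 0.12, adjusted p = 0.013). The lowest value at 6 h is library 4.24, and without it the change was -0.23 ± 0.092 (adjusted p = 0.040). The iron-sulfur subunit Sdhb and the membrane anchors Sdhc and Sdhd were not called: 77.8 ± 9.56, 53.7 ± 5.51 and 44.6 ± 3.70 CPM at 0 h (SD, n = 6) against 72.1 ± 2.39, 51.9 ± 5.01 and 41.5 ± 1.01 CPM at 6 h (SD, n = 5). In complex III, 2 of the 8 nuclear subunits rose and 0 fell, or 1 and 0 without library 4.24. The Rieske iron-sulfur protein Uqcrfs1 changed by 0.31 ± 0.11 (SE; adjusted p = 0.019) and kept its size without library 4.24 (0.31 ± 0.11), but its adjusted p was 0.17 without CTL 0 h library 5.6. Uqcrq changed by 0.43 ± 0.15 (adjusted p = 0.020), and without library 4.24 its adjusted p was 0.11.

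In complex IV, 1 of the 12 common subunits rose and 1 fell, or 0 and 2 without library 4.24. Cox4i1, Cox5a, Cox5b, Cox6a1, Cox6b1, Cox7b, Cox8a and Ndufa4 were not called, with log2 fold changes from -0.05 (Cox6a1) to 0.29 (Cox7b). Cox7a2 stood at 30.3 to 40.6 CPM in CTL at 0 h, at 32.8 to 41.0 CPM in 4 libraries at 6 h and at 72.2 CPM in library 4.24. Its change of 0.38 ± 0.14 (SE; adjusted p = 0.025) rested on that library, with 0.17 and an adjusted p of 0.16 without it. With the library number as a block its adjusted p was 0.05002. Cox7a2l, a relative of Cox7a2 that joins complexes III and IV in supercomplexes, ranged from 175 to 264 CPM at 0 h and from 138 to 170 CPM at 6 h with no overlap. It fell by 0.44 on the log2 scale (SE 0.12, adjusted p = 0.0038).

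The tissue isoforms of complex IV were low, and 3 of the 5 tested were called. With all libraries 2 rose and 1 fell, and without library 4.24 of CTL at 6 h 3 rose and 1 fell. Cox4i2, the isoform of Cox4i1 known from lung and oxygen-sensing cells, stood at 0.013 to 0.179 CPM in CTL at 0 h (median 0.052) and at 1.42, 1.08, 1.05, 0.471 and 2.78 CPM at 6 h. The groups did not overlap, and the log2 fold change was 4.36 ± 0.76 (SE; adjusted p = 9.0e-05). In CKO it stood at 0 to 0.190 CPM at 0 h and at 1.23, 0.516 and 0.614 CPM at 6 h, a change of 3.42 ± 0.79 (adjusted p = 0.0033). Even so, Cox4i2 supplied at most 1.57% of the counts of Cox4i1 and Cox4i2 together in any library. Cox6b2 ranged from 0.606 to 1.14 CPM at 0 h and from 1.38 to 2.71 CPM at 6 h in CTL, also with no overlap, and changed by 1.11 ± 0.28 (adjusted p = 0.0018). Cox4i2 and Cox6b2 are the 2 nuclear members whose levels at 6 h were all above those at 0 h, where 17.3% of all genes were. Cox6a2 changed by -2.0 ± 0.61 (adjusted p = 0.0073), from 0.353 to 4.18 CPM down to 0.117 to 0.862 CPM. Its highest value is CTL 0 h library 10.28, and without that library the adjusted p was 0.056. Cox6a2 overlaps Itgad on the other strand, and the part of that overlap in its counts was not tested. Cox7a1 and Ndufa4l2 were not called with all libraries. They stood at 1.45 ± 0.154 and 0.028 ± 0.024 CPM at 0 h (SD, n = 6) and 1.11 ± 0.353 and 0.093 ± 0.074 CPM at 6 h (SD, n = 5).

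In ATP synthase, 2 of the 17 nuclear genes rose and 1 fell, or 1 and 5 without library 4.24. Atp5g1, the ring gene with the lowest count of the 3, ranged from 31.1 to 43.9 CPM in CTL at 0 h (median 36.0) and stood at 55.8, 73.8, 46.7, 39.8 and 65.8 CPM at 6 h. The value of 39.8 CPM lies within the range of 0 h, and the log2 fold change was 0.60 ± 0.16 (SE; adjusted p = 0.0029). Its share of the counts of Atp5g1, Atp5g2 and Atp5g3 together was 16.02% to 17.5% at 0 h and 20.2% to 28.0% at 6 h in CTL, and 15.2% to 18.4% and 19.1% to 25.1% in CKO, with no overlap in either genotype. Atp5c1, the central stalk subunit that turns inside the catalytic head, ranged from 102 to 145 CPM at 0 h and from 89.5 to 97.2 CPM at 6 h. It fell by 0.42 on the log2 scale (SE 0.094, adjusted p = 0.00083). Atp5mpl, a small membrane protein of the enzyme, stood at 75.9 CPM in library 4.24 and at 29.1 to 36.8 CPM in the other 4. Its change of 0.44 ± 0.17 (adjusted p = 0.028) became 0.15 without that library, with an adjusted p of 0.24. With the library number as a block its adjusted p was 0.0504.

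**Figure D4:**
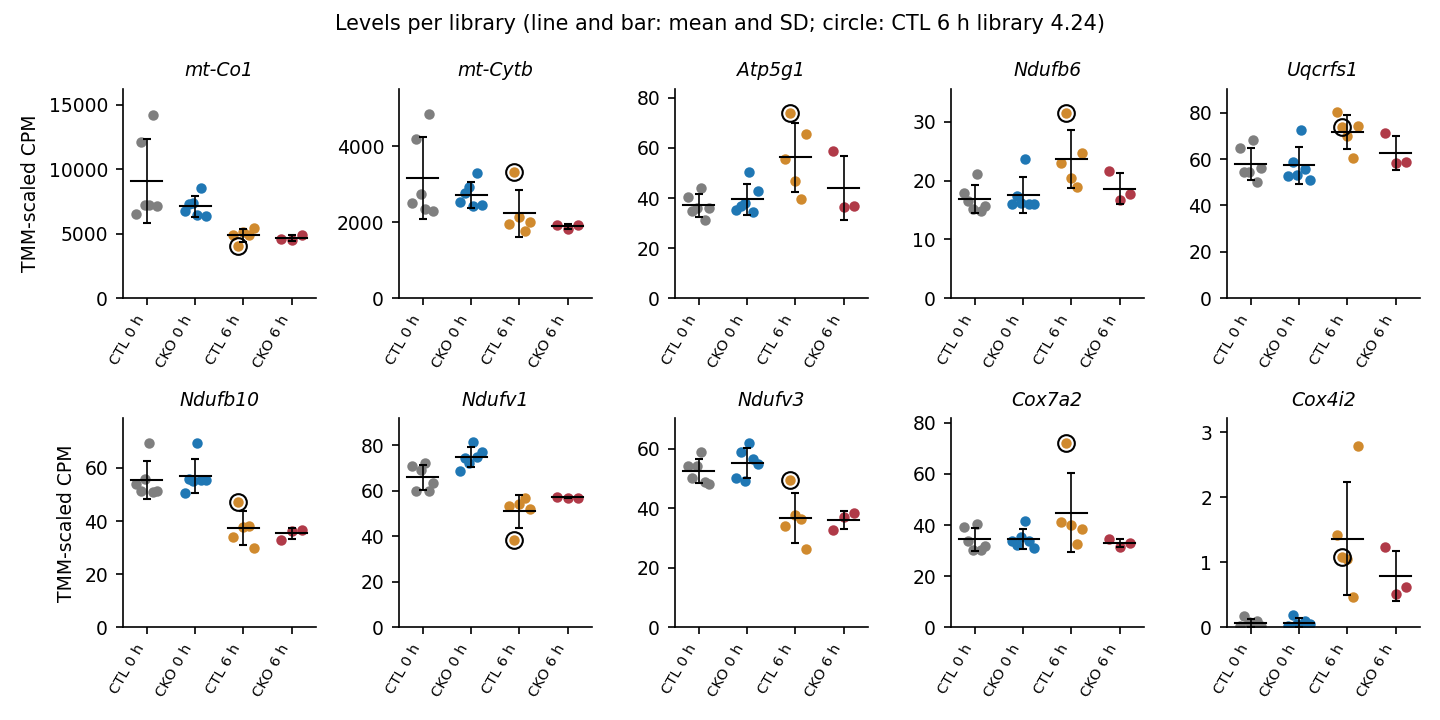
Levels of 10 members in each library (TMM-scaled CPM, linear axes from 0), with group mean and SD; the circle is CTL 6 h library 4.24. mt-Co1 and Ndufb10 are lower in every 6 h library than in any 0 h library of either genotype, and Cox4i2 is higher; in Cox7a2 the circled library lies apart.

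Of the 13 mt- genes in CTL, 3 fell and 0 rose, or 23.1% of them, beside 21.7% of all genes called lower. mt-Co1 ranged from 6511 to 14247 CPM at 0 h (median 7235) and stood at 4879, 4052, 5093, 4891 and 5469 CPM at 6 h. The groups did not overlap, and the log2 fold change was -0.84 ± 0.18 (SE; adjusted p = 0.00062). The call held in each of 20 fits that left out 1 library. mt-Nd5 (-0.57 ± 0.22, adjusted p = 0.027) and mt-Cytb (-0.44 ± 0.17, adjusted p = 0.030) were called with overlapping ranges, and mt-Nd5 was not called without library 4.24 (adjusted p = 0.12) or with the library number as a block (adjusted p = 0.057). mt-Cytb was not called without library 10.28 of CTL at 6 h (adjusted p = 0.12). Without library 4.24, mt-Nd1 (-0.52 ± 0.19, adjusted p = 0.023) and mt-Atp6 (-0.83 ± 0.31, adjusted p = 0.026) were called as well. With that library mt-Atp6 was at 0.027, since it held 2.64 CPM against 0.240 to 0.454 CPM in the other 4, and its counts are uncertain as given above.

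The share of mt-Co1 among the mt- counts was lower in every 6 h library than in any 0 h library of the same genotype. It took 48.3% to 52.4% of the counts of the 7 mt- genes of the higher range in CTL at 0 h and 48.4% to 51.2% in CKO. At 6 h it took 45.01% to 46.9% in CKO and 45.1% to 48.1% in 4 CTL libraries, but 27.6% in library 4.24. mt-Nd6, the only one of the 7 that lies on the other strand of mitochondrial DNA, took 1.81% to 2.55% in CTL and 1.73% to 2.66% in CKO at 0 h. At 6 h it took 2.51% to 2.75% in CKO and 2.49% to 3.27% in 4 CTL libraries, against 7.68% in library 4.24. In CTL at 0 h, libraries 4.24 and 5.6 were the highest for each of the 7 genes. Library 5.6 was also the highest of its group for the summed markers of myeloid cells (120 CPM), CD8 cells (114 CPM, group median 27.0) and NK cells (49.9 CPM, group median 11.5), and their part in its mt- level was not tested.

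In CKO, where 3 stimulated libraries were compared with 6 unstimulated ones, 1 nuclear member rose (Cox4i2) and 18 fell. That is 1.11% and 20%, beside 19.6% and 13.1% of all genes, and 11% and 22.2% of genes at or above 1 CPM. The median log2 fold change was -0.22 for the nuclear members and -0.11 for the genes at or above 1 CPM. The difference of these medians was -0.18 to -0.07 over all 36 settings tried, the opposite sign to that in CTL. The settings share their libraries, so they are not independent. The median log2 deviation of the nuclear members from their CTL 0 h mean, per library, overlapped between genotypes at 6 h. It was -0.21 to -0.08 in CKO and -0.17 to 0.41 in CTL. Complex I again held most of the calls, with 5 of 7 core subunits, 6 of 29 accessory subunits and 1 of 8 assembly factors lower. Ndufb10 went from 50.5 to 69.5 CPM at 0 h to 32.9, 36.3 and 36.8 CPM at 6 h, a log2 fold change of -0.69 ± 0.14 (SE; adjusted p = 0.0013). Ndufv3 changed by -0.65 ± 0.14 (adjusted p = 0.0022). Ndufb3, an accessory subunit, changed by -0.57 ± 0.14 (adjusted p = 0.0059). In ATP synthase Atp5e, Atp5g2, Atp5c1, Atp5l and Atp5h fell. Of the 12 common subunits of complex IV, the 4 subunits of complex II and the 8 nuclear ones of complex III, 0 were called in CKO with all libraries. With the library number as a block, 13 nuclear members fell. The 5 that lost their call include Ndufs1 (adjusted p = 0.14), Ndufaf7 (adjusted p = 0.11) and Atp5l (adjusted p = 0.054), and 2 of the 7 core subunits of complex I were then called lower. Of the 15 nuclear members lower in CTL without the block, 11 were also lower in CKO, which is 73.3% of the first list and 61.1% of the second. Without library 4.24 of CTL at 6 h, whose counts enter the shared spread, 29 fell in CKO. Among them were 4 common subunits of complex IV, 2 nuclear subunits of complex III and 1 subunit of complex II. Without CKO 6 h library 5.13, 5.6 or 11.18, 8 to 11 fell.

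With only 3 libraries at 6 h, groups in CKO were often separate: 41 nuclear members lay lower in every 6 h library than in any 0 h library and 1 higher, beside 17.1% and 29.9% of all genes. The separate share among genes averaging 1 CPM or more is not given here. Calls lower were more common among those genes (22.2%) than among all genes (13.1%), so 17.1% is no close background for the 41. Of the mt- genes, mt-Cytb (-0.67 ± 0.21, SE; adjusted p = 0.018), mt-Co1 (-0.68 ± 0.22, adjusted p = 0.023) and mt-Nd1 (-0.65 ± 0.23, adjusted p = 0.034) fell in CKO. mt-Co1 ranged from 6361 to 8582 CPM at 0 h and stood at 4623, 4496 and 4883 CPM at 6 h. mt-Cytb ranged from 2418 to 3303 CPM at 0 h and stood at 1927, 1818 and 1918 CPM at 6 h. Both, with mt-Nd1 and mt-Nd4, were separate between the times. The mt- calls in CKO were lost to 1 or 0 genes when a CKO 6 h library was left out.

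CTL 6 h library 4.24 differed from the other 4 of its group by the length of the members. Over the 85 nuclear members with a mean log2 CPM of at least 2, the rank correlation between coding length and the deviation from the other libraries of the group was -0.82 in library 4.24. It was 0.43 to 0.68 in the other 4 libraries of the group, but the reference for each of these 4 includes library 4.24. These 4 values are therefore not independent of that library. In the 12 libraries at 0 h the correlation lay between -0.37 and 0.39. The median coding length of the 8 such members that rose in CTL was 366 bases, against 842 for the 14 that fell and 423 for the 63 not called. Without library 4.24 the medians were 456 bases for 4 that rose and 528 for 25 that fell. Over these 85 members the fold change in CTL correlated with coding length at a Spearman rho of -0.46 with library 4.24 and -0.12 without it, and in CKO at 0.22. The fold change between genotypes correlated with it at -0.46 at 0 h, where library 4.24 of CTL at 6 h is in neither group, and at 0.68 at 6 h, or 0.34 without that library. The points share their libraries and their depth, and no RNA integrity number per library was at hand, so the part of RNA quality was not tested.

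**Figure D5:**
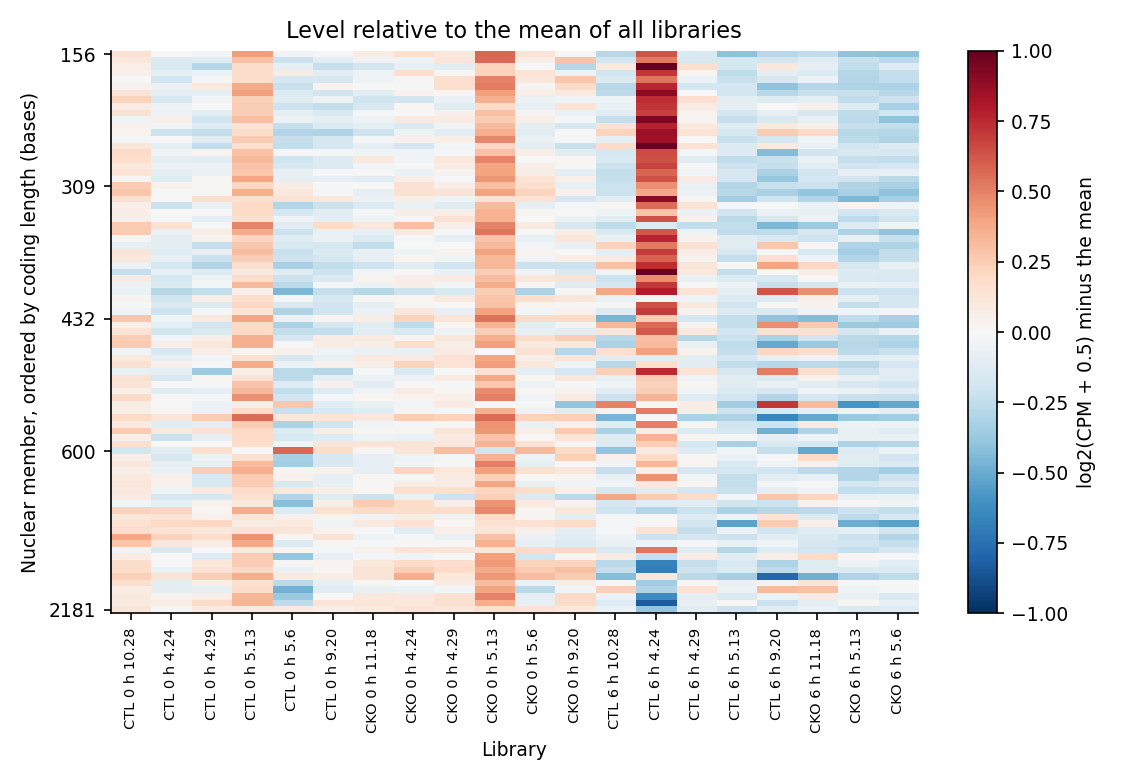
log2(CPM + 0.5) of 85 nuclear members in the 20 libraries, each relative to its mean, ordered by coding length from 156 to 2181 bases. In CTL 6 h library 4.24 the short members at the top are red and the longest at the bottom are blue; CTL and CKO 0 h libraries 5.13 are red for most members of every length.

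Loss of Pcbp2 at 0 h left the levels of these genes without a call. Of 90 nuclear and 13 mt- members, 0 were called in either direction by edgeR, beside 0.231% higher and 0.192% lower of all genes tested and 0.401% and 0.346% of those averaging 1 CPM or more, and DESeq2 called 0 as well. At an unadjusted p under 0.05 there were 3 nuclear members and 0 mt- genes. The median log2 fold change was 0.09 for the nuclear members and -0.10 for the mt- genes. Over the settings tried the nuclear median ran from 0.02 without CKO library 5.13 to 0.19 without CTL library 5.13. The mt- median ran from -0.01 with only the groups compared to -0.36 with the block and no sex term, and was -0.24 with the block, -0.27 with sex read from Xist and -0.35 with no sex term. The smallest p-values were those of Ndufa10, Cox7a1, Cox6b2 and Uqcr10. Ndufa10 ranged from 58.0 to 78.2 CPM in CTL (median 65.7) and from 52.6 to 69.9 CPM in CKO (median 54.98), a change of -0.25 ± 0.094 (SE; adjusted p = 0.44). Cox7a1 ranged from 1.18 to 1.60 CPM in CTL and from 0.780 to 1.05 CPM in CKO (-0.56 ± 0.23, adjusted p = 0.54). It is the single nuclear member whose CKO levels at 0 h were all below those of CTL, as 0.979% of all genes were, and 0 members were all above, as 0.951% of all genes were. Cox6b2 (0.66 ± 0.29, adjusted p = 0.61) and Uqcr10 of complex III (0.27 ± 0.14, adjusted p = 0.70) overlapped. The 3 regulatory T cell markers (Foxp3, Il2ra and Ikzf2) summed to 123 to 240 CPM in CTL and 170 to 548 CPM in CKO at 0 h, and to 224 to 416 CPM and 374 to 570 CPM at 6 h. At 6 h the B cell sum given above was higher in every CKO library than in any of CTL. So was that of 4 stromal and endothelial markers (172 to 244 CPM in CTL and 251 to 355 CPM in CKO). That sum was mostly Pecam1, with means of 200 CPM in CTL and 308 CPM in CKO. Col1a1, Col3a1 and Cdh5 went the other way, with means of 3.02, 2.37 and 1.68 CPM in CTL and 1.22, 0.541 and 0.623 CPM in CKO. The part of the cells behind these marker sums in the comparisons of genotype was not tested.

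At 6 h, 0 members were called between the genotypes by edgeR or DESeq2, beside 0.253% higher and 0.0392% lower of all genes, and 0.45% and 0.0761% of those averaging 1 CPM or more. At an unadjusted p under 0.05 there were 8 nuclear members and 0 mt- genes. The medians were -0.18 for the nuclear members and -0.40 for the mt- genes, and -0.05 and -0.15 without library 4.24. The smallest p-values were those of Ndufa5 (-0.42 ± 0.15, SE; adjusted p = 0.34), Ndufb2 (-0.46 ± 0.19, adjusted p = 0.37), Cox7a2 (-0.41 ± 0.18, adjusted p = 0.38) and Atp5mpl (-0.47 ± 0.21, adjusted p = 0.38). Ndufa5 stood at 21.9, 26.8, 20.6, 17.2 and 22.5 CPM in CTL and at 18.7, 15.03 and 14.96 CPM in CKO, with overlap. In Ndufb2 the library 4.24 stood at 37.6 CPM and the other 4 of CTL at 15.6 to 20.2 CPM, against 14.4 to 16.1 CPM in CKO. Groups did not overlap for 7 nuclear members, where 3.65% of all genes were separate with CKO higher and 3.05% with CKO lower. Among them Ndufv1 and Sdhb were higher and Ndufa9, Ndufaf1 and Ndufb3 lower in every CKO library, none with a call.

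The difference between the stimulation responses of CKO and CTL was not called for any member by edgeR, and of all 28082 genes 0% were called in either direction. DESeq2 called 0 members, and 3 genes higher and 7 lower of all. At an unadjusted p under 0.05 there were 11 nuclear members and 0 mt- genes, and 0 nuclear members without library 4.24. The median was -0.27 for the nuclear members with library 4.24 and -0.09 without it. Relative to the genes at or above 1 CPM in the same fit it stood at -0.41 to -0.12 over all 35 settings tried, which share their libraries. The smallest p-values belonged to Ndufa5 (-0.51 ± 0.20, SE; adjusted p = 0.46), Ndufc2 (-0.48 ± 0.20, adjusted p = 0.46), Atp5mpl (-0.62 ± 0.26, adjusted p = 0.46) and Uqcr10 (-0.48 ± 0.21, adjusted p = 0.46). The response of a member past the threshold in only one genotype is therefore not shown to differ between genotypes.

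Promoters of nuclear respiratory genes are known for binding sites of NRF1, of ETS factors such as GABP (NRF2), and of YY1. RefSeq promoters (GRCm38.p6, 250 bases before to 50 after the start) were matched for 76 of the 93 nuclear members, and 3 cores were searched on both strands. The NRF1 core GCGCATGCG was found for 10 genes (13.2%), beside 4.18% of 9834 genes averaging 1 CPM or more and 1.95% of all 27025 genes with a promoter. The YY1 core AAGATGGCG was found for 8 genes (10.5%), beside 3.63% and 1.64%, and for 1 gene (1.32%) when only bases before the start were read. The ETS core CCGGAAG was found for 18 genes (23.7%), beside 20.6% and 9.93%. None of the cores was found for 46 of the 76, and more than 1 kind for 6. The following windows, 120 bases before to 30 after the start with cores in capitals, show 3 of those 6: Uqcr11 of complex III (chr10:80406792-80406941, minus strand, ETS then NRF1 core), Atp5k of ATP synthase (chr5:108434370-108434519, minus strand, NRF1 core on both strands, then ETS core) and Atp5j of ATP synthase (chr16:84834947-84835096, minus strand, YY1 then ETS core).
Uqcr11: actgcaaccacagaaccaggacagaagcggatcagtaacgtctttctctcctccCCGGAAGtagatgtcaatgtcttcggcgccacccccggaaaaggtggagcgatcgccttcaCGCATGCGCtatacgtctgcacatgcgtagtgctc
Atp5k: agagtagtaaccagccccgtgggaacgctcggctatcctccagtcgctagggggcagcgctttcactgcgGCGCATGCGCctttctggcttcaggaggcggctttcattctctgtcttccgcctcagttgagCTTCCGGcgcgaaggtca
Atp5j: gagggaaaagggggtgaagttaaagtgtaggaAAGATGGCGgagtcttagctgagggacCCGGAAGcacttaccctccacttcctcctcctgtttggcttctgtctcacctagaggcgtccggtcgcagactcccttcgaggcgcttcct
These genes were not called in CTL with all libraries. Of the 10 members with the NRF1 core, 0 rose and 0 fell in that fit (median log2 fold change -0.07). Of the 64 matched and tested members without it, 7 rose and 12 fell. Of the 18 with the ETS core, 1 rose and 1 fell (median -0.05), beside 6 and 11 of 56 without it. Of the 8 with the YY1 core, 0 rose and 1 fell (median 0.07), beside 7 and 11 of 66 without it. Without library 4.24 of CTL at 6 h, the 26 nuclear members that fell in CTL included Atp5g2 and Atp5l with the NRF1 core. Atp5e, Atp5h, Atp5l and Ndufs3 with the ETS core were also among them. All of these fell in CKO too. Counts by core without library 4.24 are not given here. A match is a description of these letters and not of binding. Members without an entry in the table used include Cox4i1, Cox4i2, Cox6a2, Cox6c, Sdhc, Uqcrb, Uqcrc2, Uqcrq, Atp5a1 and Atp5mpl.

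Genes outside the naming rule were described from lists drawn up with earlier results of these data known. Their counts in CTL stand beside 18.2% higher and 38.2% lower among genes averaging 1 CPM or more, and 41.6% and 21.7% among all genes, and nothing particular to a list follows from them. The mobile carrier cytochrome c (Cycs) rose from 33.5 to 64.3 CPM (means) in CTL, a log2 fold change of 0.94 ± 0.15 (SE; adjusted p = 5.6e-05), and by 0.61 ± 0.18 in CKO (adjusted p = 0.015). Usmg5, a small ATP synthase subunit whose symbol is outside the naming rule, changed by 0.73 ± 0.18 in CTL (adjusted p = 0.0015) and by -0.0029 ± 0.21 in CKO (adjusted p = 0.99), and the difference was not called (adjusted p = 0.46). Without library 4.24 the change of Usmg5 in CTL was 0.47 (adjusted p = 0.0075). Of 7 tested assembly factors of complex I outside the Ndufaf family, 6 fell and 0 rose in CTL. The fall of Ecsit was -0.61 ± 0.081 (adjusted p = 6.7e-06) in CTL and -0.59 ± 0.098 (adjusted p = 0.00025) in CKO. Of 33 assembly factors of complexes II to V, 2 rose and 8 fell. Lyrm7, which matures the Rieske protein of complex III, rose by 1.08 ± 0.14 (adjusted p = 7.7e-06). Atpaf1, an assembly factor of the ATP synthase head, fell by 0.71 on the log2 scale (SE 0.087, adjusted p = 3.0e-06).

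Of 13 genes of coenzyme Q synthesis and transport, 3 rose and 5 fell in CTL. Coq9 changed by -0.71 ± 0.071 (SE; adjusted p = 2.4e-07) and Coq10b, a coenzyme Q binding protein, by 1.04 ± 0.11 (adjusted p = 3.0e-07). Of 15 genes for upkeep and transcription of mitochondrial DNA, 1 rose and 9 fell. Among them were Tfam, which packages that DNA and starts its transcription (-0.25 ± 0.071, adjusted p = 0.0046), and Polrmt, its RNA polymerase (-0.52 ± 0.14, adjusted p = 0.0029). Of 18 genes for processing and stability of mitochondrial RNA, 2 rose and 3 fell. Of the 11 regulators of nuclear respiratory genes, 3 rose and 5 fell. Myc rose by 2.22 ± 0.26 (adjusted p = 1.5e-06) and Gabpb1, a subunit of GABP, by 0.61 ± 0.077 (adjusted p = 4.2e-06). Esrra, a nuclear receptor of mitochondrial genes, changed by -1.24 ± 0.12 (adjusted p = 1.4e-07), and its coactivator Ppargc1b by -0.87 ± 0.098 (adjusted p = 1.2e-06). Of 6 carriers and channels, the phosphate carrier Slc25a3 rose (0.22 ± 0.082, adjusted p = 0.025) and the adenine nucleotide carrier Slc25a4 fell (-0.42 ± 0.10, adjusted p = 0.0013). Between genotypes 0 genes of these 8 lists were called at 0 h or at 6 h by edgeR, and the background shares of that comparison are those given above.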

How the data were processed

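RNA was sequenced from 20 libraries (TruSeq stranded mRNA, paired-end reads, per the labels' protocols). The authors deposited whole-number counts per Ensembl gene. Per the submitters' processing notes, Trimmomatic 0.36, STAR 2.5.2b and featureCounts of Subread 1.5.2 were used with GRCm38. The sources used here do not give the annotation release, the strand setting or the handling of reads with several matches. Of 49315 identifiers, 48970 matched GENCODE M21, which gave symbols, positions and lengths.

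The count test was edgeR 4.0.16 (R 4.3.3), with filterByExpr (minimum count 10, minimum total 15), TMM factors, and a robust quasi-likelihood fit with 4 groups and the labelled sex over all 20 libraries. Benjamini-Hochberg adjustment ran over the 28082 genes tested, and a gene was called under 0.05. CPM values use TMM-scaled library sizes, and levels per length divide by annotated transcript length. Library totals (26427467 to 85608113 counts) set the precision. The procedure was tested on simulated data. DESeq2 1.42.0, other scalings and filters, other covariates and leaving out each library were tried as alternatives. Same-numbered libraries deviated together from their group means (correlations of 0.308 to 0.603 for 5 CTL and CKO pairs at 0 h, 0.347 to 0.507 for 5 CTL pairs over time, 0.195 to 0.474 for 3 CKO pairs over time), so a fit with the number as a block is given where it changes a call. The labels do not say what a number marks.

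Genes named with values are the 13 mt- genes, complex II, up to 10 nuclear members per direction called in CTL, by size of change (mean log2 CPM of 2 or more), the 4 with the smallest p in the other comparisons, tissue isoforms with their partners, the most abundant members, and up to 4 called genes of each other list. The members and lists were chosen with earlier results of these data known. Core subunits beyond that rule (Ndufs1), the other members counted by name and the ratio of Ndufb6 to Ndufb10 were picked after their values were seen. Of the genes this rule selects, 1 is not reported here.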

Additional observations from a re-analysis of the deposited data

Results flagged for a closer look

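Within groups of 5 or 6 libraries, 192 sets of values of 64 quantities were searched for a highest or lowest library lying far from the rest (Dixon's criterion, which chance meets in about 1 of 20 sets). It was met 54 times, and 2 libraries account for most: CTL 6 h library 4.24 with 30 and CKO 0 h library 5.13 with 21. The quantities share their libraries, so these are not independent.

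CTL 6 h library 4.24 was the highest of 5 for the nuclear share of counts (0.8628%, others 0.5144% to 0.598%) and the mt- share (2.001%). It was also the highest for the share of mt-Nd6 among the 7 mt- genes of the higher range (7.68%). The same held for the counts of the other 6 mt- genes as a percentage of those 7 (0.1077%). It was the lowest for the share of mt-Co1 (27.58%), for the ratio of core to accessory counts of complex I (0.2867, others 0.4193 to 0.4554) and for Ndufv1 (38.52 CPM, others 52.12 to 56.76). Of the mt- genes, it stood apart as the highest in CPM for mt-Nd1 at 2054, mt-Nd2 at 1494, mt-Co2 at 2.086, mt-Atp6 at 2.642, mt-Co3 at 2.948, mt-Nd3 at 6.62, mt-Nd4 at 1755, mt-Nd6 at 1128 and mt-Cytb at 3325. Of the nuclear members, it was the highest in CPM for Atp5mpl at 75.88, Cox7a2 at 72.2, Uqcr10 at 47.39, Ndufb2 at 37.63, Cox4i1 at 232.7, Cox5b at 104.0 and Cox6a1 at 134.6. It was likewise the highest in CPM for Cox6b1 at 93.82, Cox7b at 80.8, Cox8a at 127.1, Ndufa4 at 103.3, Atp5g2 at 80.21, Atp5g3 at 179.8 and Uqcrh at 139.2.

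CKO 0 h library 5.13 was the highest of 6 for the nuclear share of counts (0.6309%, others 0.5352% to 0.5664%) and the lowest for the ratio of core to accessory counts of complex I (0.4379, others 0.4771 to 0.4976). In CPM it was the highest for Ndufb6 at 23.67, Uqcrq at 52.45, Uqcrfs1 at 72.42, Ndufb10 at 69.47, Atp5c1 at 156.2, Ndufa10 at 69.89, Ndufa13 at 71.74, Sdhc at 62.22 and Sdhd at 59.41. The same held in CPM for Ndufc2 at 31.65, Cox4i1 at 273.0, Cox5a at 51.38, Cox6a1 at 127.1, Cox6b1 at 84.52, Cox7b at 58.81, Cox8a at 107.0, Ndufa4 at 80.42, Atp5g3 at 140.7 and Uqcrh at 122.7. CTL 0 h library 5.13 was the highest of its group for Ndufa5 at 22.52 and Ndufb10 at 69.54 CPM. CTL 0 h library 10.28 was the highest for Cox6a2 at 4.182 CPM, where the other 5 lay between 0.3534 and 1.255 CPM.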

How the results depend on the processing

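In CTL, the number of nuclear members called higher after stimulation (10) was 16 with RLE size factors, 41 with library totals, 24 with a mean CPM of at least 1, 16 with DESeq2, 5 without the 2 CKO 0 h libraries whose Xist differs from the label, and 2 against a fold of 1.5. The number called lower (15) was 4 with library totals, 4 with a mean CPM of at least 1, 26 without those 2 libraries and 1 against a fold of 1.5. With library 4.24 of CTL at 6 h left out as well, chosen after the data were seen, 16 rose and 9 fell with a mean CPM of at least 1, and 22 rose with library totals. The nuclear median was 0.29 with library totals and 0.245 with a mean CPM of at least 1. Leaving out 1 library in turn gave 5 to 17 higher and 12 to 26 lower: 17 higher without CTL 0 h 5.13, 26 lower without CTL 6 h 4.24, 23 lower without CTL 0 h 9.20, and 5 higher without CTL 0 h 5.6 or 9.20 or CKO 0 h 4.29, 5.6 or 9.20. For the mt- genes, 3 lower became 1 with RLE, library totals, a mean CPM of at least 1, only the groups compared, and both settings without library 4.24, and 0 against a fold of 1.5. Leaving out 1 library gave 1 to 5 mt- genes lower and an mt- median of -0.45 to 0.09, and turned mt-Atp6 to -0.83.

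In CKO, the 18 nuclear members lower became 9 with library totals, 8 with a mean CPM of at least 1 and 1 against a fold of 1.5, and 8 to 29 leaving out 1 library (28 without CTL 0 h 5.6, 29 without CTL 6 h 4.24, 8 without CKO 6 h 5.13, 11 without CKO 6 h 11.18 or 5.6). The 1 higher became 0 with a mean CPM of at least 1, 2 with DESeq2, 2 with library totals without library 4.24, and 1 to 2 leaving out 1 library. The 3 mt- genes lower became 1 with library totals, a mean CPM of at least 1 (with or without library 4.24), no sex term, and without the 2 CKO 0 h libraries, 0 against a fold of 1.5, and 0 to 4 leaving out 1 library. The mt- median between genotypes at 6 h ranged from -0.53 to -0.0236 leaving out 1 library, the latter without CKO 6 h 5.6. The nuclear median of the difference of responses was -0.45 with library totals and -0.34 to -0.0913 leaving out 1 library, the latter without CTL 6 h 4.24. The YY1 core was found for 1 gene when only bases before the start were read. The cause of these moves was not tested. With the library number as a replicate block, 7 nuclear members rose and 15 fell in CTL (median -0.02) with 2 mt- genes lower, and 1 rose and 13 fell in CKO with 3 mt- genes lower. Between genotypes 0 members were called under any alternative, the block included. Over all alternatives, 1020 summary values stayed within the limits set and 67 moved. Of the values of single genes, 163 lost a call and 76 gained one. Members not called also changed sign: Cox4i1 in CTL kept its sign under 9 of 15 settings other than leaving out 1 library, and mt-Co3 in CKO under 5 of 14. Depth differed most in library 4.24 of CTL at 6 h, and 3 libraries of CKO at 6 h limit every comparison with that group.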
